A study of Mus musculus with 2 samples.

Results

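The genes described here encode the sorting machinery of endosomes: retromer, the sorting nexins, the HOPS and CORVET tethers, and the ESCRT complexes. They were chosen by name from the array's single-symbol rows. The choice took each symbol that starts with Vps, Snx or Chmp followed by a digit, and added Hgs, Stam, Stam2, Tsg101, Eea1 and Plekhm1. It gave 83 rows for 79 genes, of 22180 genes named on the array. The study profiled alveolar macrophages, which live in the airspaces of the lung and clear surfactant and particles, on Affymetrix arrays to ask what loss of the lipid kinase PIKfyve does to their gene expression. Both groups were adult littermates of strain C57BL6. The wild type group carried floxed Pikfyve alleles (PIKfyve f_f), and the PIKfyve KO group carried the same floxed alleles with LysM-Cre (f_f_lysm_cre), a Cre recombinase expressed from the lysozyme locus of myeloid cells. There was 1 array for each genotype, and whether an array held RNA of a single mouse or of pooled mice was not given in the sources used here.

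Proteins that enter an endosome are either returned to the cell surface and the Golgi or kept for degradation in the lysosome. Retromer and the sorting nexins pull receptors into recycling tubules, ESCRT complexes pack ubiquitin-tagged proteins into internal vesicles, and CORVET and HOPS tether endosomes to each other and to lysosomes. Many of these proteins are recruited by the lipid PI3P, through the PX domain of sorting nexins or the FYVE domain of Hgs and Eea1, and PI3P is the lipid that PIKfyve phosphorylates. In macrophages this machinery handles phagocytosed material and scavenger receptors.

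Each value below is a log2 level from RMA, and each difference is the level in the array labelled knockout minus that in the array labelled wild type. With 1 array per genotype there is no replicate error, so no difference was tested and no p-value is given. The local spread, a scaled median absolute deviation of the differences of genes of like level, is given as a yardstick. It ran from 0.20 to 0.33 over 20 bins of level and holds both noise and real differences. Background was set at the 95th percentile of 1428 olfactory, vomeronasal and taste receptor genes, 5.37 for the wild type array and 5.31 for the knockout array. Genes with a mean level of at least 5.13, the median row, entered the counts, and 12516 genes did. Of the 79 endosomal sorting genes, 75 passed.

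The labels could not be checked on Pikfyve, which read 5.68 on the wild type array and was not lower, at 5.95, on the other. The position of its probes against the floxed exons was not given in the sources used here. All 13 measured alveolar macrophage markers lay above background on both arrays, from 8.13 to 13.14 (wild type) and from 7.87 to 13.27 (knockout). Of the markers used for the sort, Siglecf read 9.27 and 8.54, and the CD11c gene Itgax 10.03 and 10.39. Markers of other cells were also present: 10 and 9 of 10 neutrophil genes, 7 and 7 of 9 monocyte genes, 11 and 12 of 14 epithelial genes, and 6 and 8 of 10 T and NK cell genes lay above background on the wild type and knockout arrays. So did 8 and 9 of 9 genes of interstitial or monocyte-derived macrophages and 5 and 5 of 5 B cell genes, but only 2 and 2 of 6 endothelial and 1 and 3 of 6 eosinophil genes. The summed linear signal of the neutrophil list was 7011 and 9630, that of the epithelial list 7883 and 9501, that of the interstitial list 2683 and 3286, and that of the monocyte list 2838 and 2108. That of the T and NK list was 4157 and 4601, of the B cell list 439 and 416, of the endothelial list 294 and 395, and of the eosinophil list 642 and 410. These sums follow their brightest genes. Past 1.5-fold, 5 of the 7 monocyte genes that passed were lower and 0 higher, with Fn1 2.90-fold and Ms4a4c 2.51-fold lower. Of 10 neutrophil genes, 5 were higher by that much and 1 lower, with Camp 2.12-fold higher. Of 9 interstitial genes, 4 were higher and 0 lower, with Ms4a7 2.38-fold higher. Of the 13 alveolar macrophage markers, 1 was higher and 3 lower, with Krt79 1.97-fold lower. The eosinophil sum followed Siglece (9.04 and 8.02), the only gene of that list above background on the wild type array. The fall of that sum is thus that of 1 gene and not a measure of eosinophils. In the same list Prg2 (4.71 and 5.76) and Epx (4.95 and 5.33) were higher, from below background to above it. In the epithelial list 6 of 14 genes were higher past 1.5-fold and 2 lower. The bright Scgb1a1 read 12.26 and 12.39. Bpifa1 was 5.53-fold and Scgb3a1 2.77-fold higher, and the 2 lower genes were Epcam (3.98-fold) and Napsa (1.80-fold). Past 1.5-fold, 2 of the 9 T and NK genes that passed were higher and 0 lower, with Gzma 2.21-fold higher. The part of other cells in the differences below was not tested. In bulk RNA, fewer cells of a type and less RNA per cell cannot be told apart.

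Most endosomal sorting genes read nearly alike on the arrays. Of the 75 that passed, 1 was higher in the array labelled knockout by 1.5-fold or more and 1 was lower by as much, where 4.45% and 2.66% of all 12516 genes were. The PX-only sorting nexin gene Snx12 was the higher one and the Golgi tether gene Vps54 the lower one. None reached 2-fold, a size that 0.927% of all genes reached upward and 0.336% downward. At a smaller threshold, with the higher linear signal at least 25% above the lower, 7 were higher and 3 lower, beside 14.6% and 12.9% of all genes. Within that 25% lay 86.7% of the endosomal sorting genes and 72.5% of all genes. Differences larger than 1 local spread were found for 18 of the 75 (24.0%) and for 34.6% of all genes. Only Vps54 differed by more than 2 local spreads (1.33% of the 75, beside 8.38% of all genes). These shares describe the arrays; whether the group differs from other genes was not tested.

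**Figure D1:**
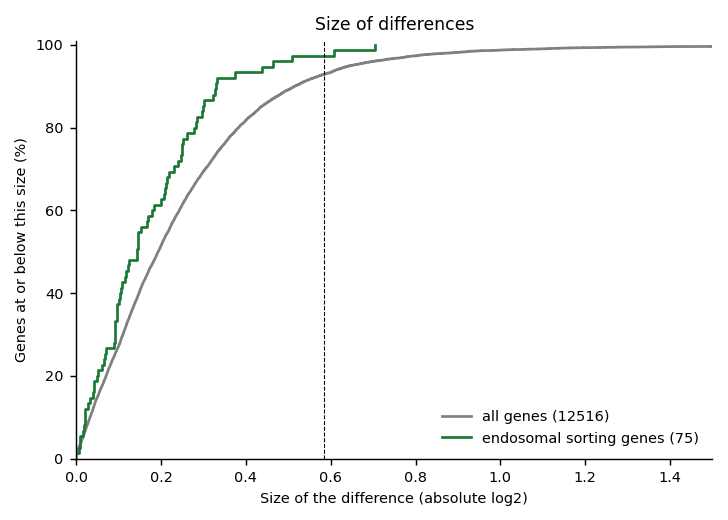
Cumulative share of genes (y axis, percent) by the size of the difference between the arrays (x axis, absolute log2), for the 75 endosomal sorting genes and for all 12516 genes that passed the filter; the dashed line marks 1.5-fold. The green curve lies above the grey one at small sizes, with 86.7% of the endosomal sorting genes and 72.5% of all genes less than 25% apart, and ends at 0.70, the size for Vps54.

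More endosomal sorting genes were higher than lower in the array labelled knockout, 47 against 28, which is 62.7% higher; of all genes 48.9% were higher and 49.6% lower. Their median difference was 0.05 and that of all genes 0.00. The share that was higher varied with level, in these genes and in all genes. Among the 43 endosomal sorting genes in the highest tercile of all genes by level, 30 were higher (69.8%, beside 61.8% of all genes), with a median of 0.07 beside 0.09. In the middle tercile 12 of 23 were higher (52.2% beside 44.5%), with a median of 0.00 beside -0.03. In the lowest tercile 5 of 9 were higher (55.6% beside 40.3%), with a median of 0.02 beside -0.06. The share was thus larger than that of all genes in each tercile, a description that was not tested. With the differences centred on level by a loess curve, 41 were higher and 34 lower, and the median was 0.02. That centring turned the direction of 14 genes, none of which differed by more than 0.10 as deposited.

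**Figure D2:**
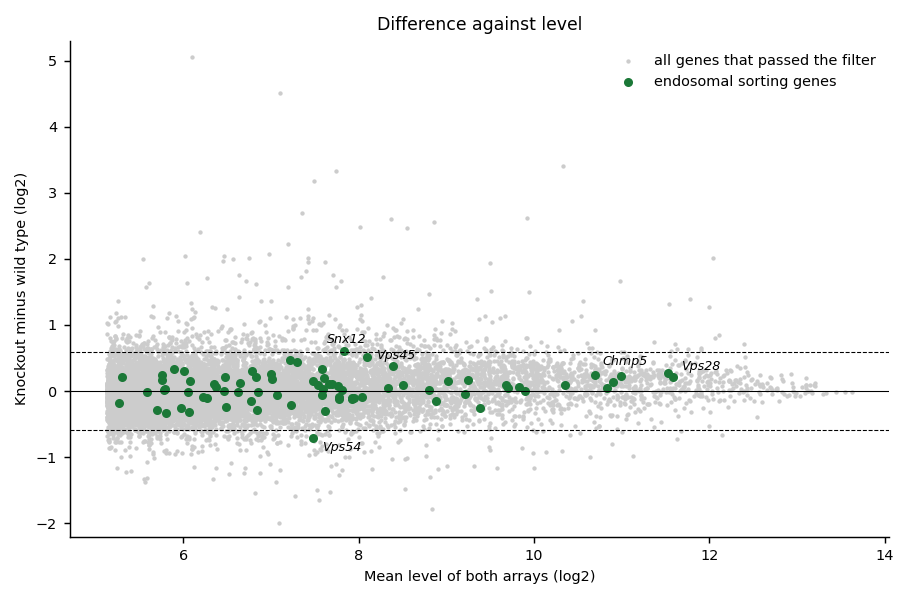
Difference between the arrays (y axis, knockout minus wild type, log2) against the mean level (x axis, log2) for all 12516 genes that passed the filter (grey) and the 75 endosomal sorting genes (green); dashed lines mark 1.5-fold. Snx12 lies just above the upper line at 0.61, Vps54 below the lower one at -0.70, and at the right Vps28 and Chmp5 lie above 0, at 0.22 and 0.28.

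**Figure D3:**
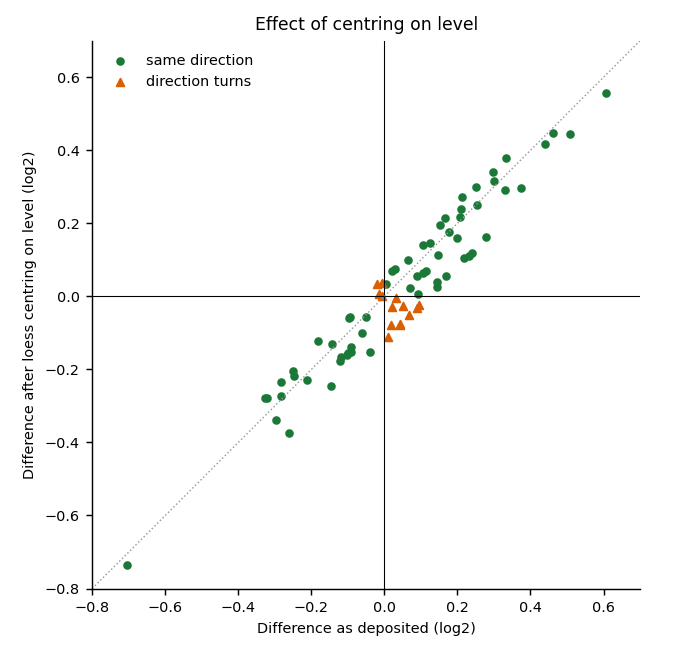
Difference of the 75 endosomal sorting genes as deposited (x axis, log2) and after centring on level (y axis, log2); the dotted line marks equality. The 14 genes whose direction turns (triangles) lie within 0.10 of 0 on the x axis, while Snx12, at 0.61 and 0.56, and Vps54, at -0.70 and -0.74, keep theirs.

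**Figure D4:**
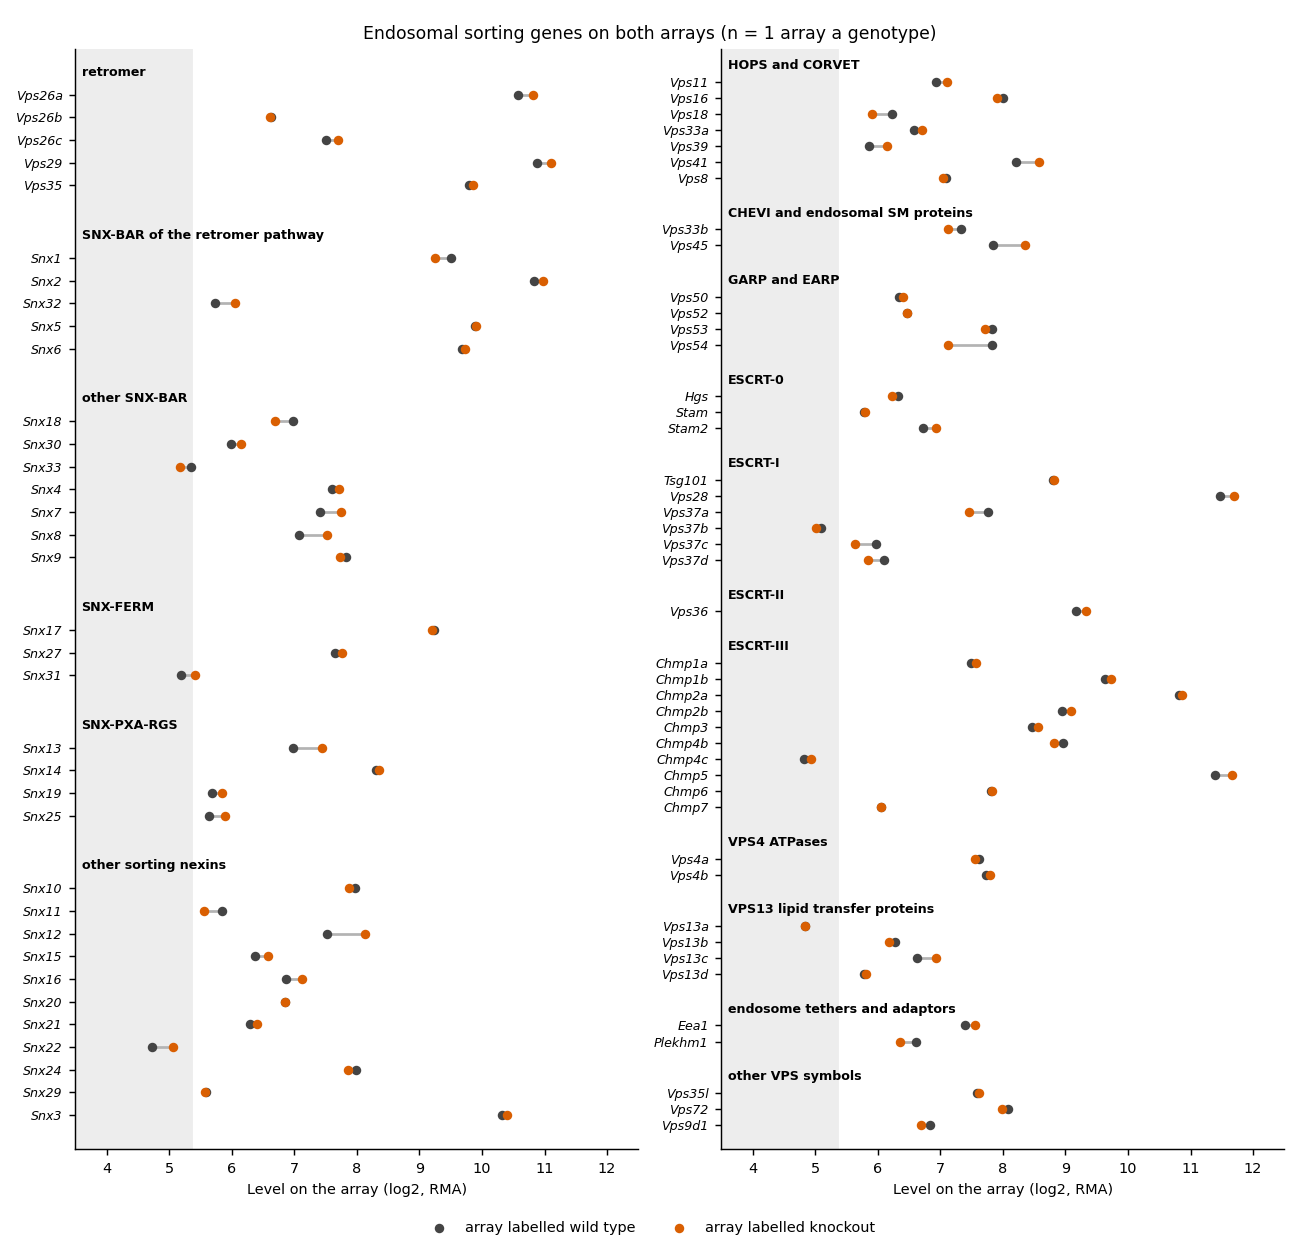
Level (x axis, log2) of each of the 79 endosomal sorting genes on the array labelled wild type (dark) and the array labelled knockout (orange), by role; the grey area is below the background level of the wild type array, 5.37. The longest bars are those of Vps54 (7.83 and 7.13), Snx12 (7.53 and 8.14) and Vps45 (7.84 and 8.35), and most other pairs of points overlap or nearly do.

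The promoters of the genes past 1.5-fold, and of the subunit genes that hold a binding motif of the lysosomal transcription factors TFEB and TFE3, are shown first. These sequences are from RefSeq on GRCm38.p6, whose promoter table holds 65 windows for 54 of the 79 genes, from 250 bases before a start site to 50 after it. The motifs sought on both strands were the E-box CACGTG, its longer forms TCACGTG and GTCACGTG, each of which contains the shorter, and the full palindrome GTCACGTGAC. CCAAT and GGGCGG, common elements of promoters, were added. The 250 bases upstream of the Snx12 start site, chrX:101222564-101222813 on the minus strand, hold 3 matches of CCAAT and 1 of GGGCGG. Those of Vps54, chr11:21238782-21239031 on the plus strand, hold 3 of GGGCGG and none of CCAAT. Neither holds CACGTG, which says only that these letters are not in these windows. G and C make up 56.4% of the Snx12 sequence and 83.2% of the Vps54 sequence. Capitals mark the matches, read 5′ to 3′ on the gene's strand.
Snx12: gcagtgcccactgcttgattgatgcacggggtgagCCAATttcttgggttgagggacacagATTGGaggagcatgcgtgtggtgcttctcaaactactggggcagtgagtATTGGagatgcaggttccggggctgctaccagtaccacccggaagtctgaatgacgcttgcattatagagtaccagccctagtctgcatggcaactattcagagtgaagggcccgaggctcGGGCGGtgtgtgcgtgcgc
Vps54: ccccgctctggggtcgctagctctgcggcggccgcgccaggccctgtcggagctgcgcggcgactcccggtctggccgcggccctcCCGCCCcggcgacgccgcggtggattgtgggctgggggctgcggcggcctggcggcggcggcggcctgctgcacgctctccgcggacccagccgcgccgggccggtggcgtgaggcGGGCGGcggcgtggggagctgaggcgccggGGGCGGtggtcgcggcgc

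GTCACGTG was found in windows of 4 of the 54 genes (7.41%), beside 2.55% of the 27025 genes in the table, and CACGTG in those of 7, beside 8.09% of all. The 4 were Vps16 and Vps33a of the HOPS core, Vps26a of retromer and Vps50 of EARP. The full palindrome was found for Vps16, Vps33a and Vps26a, 3 of 54 genes (5.56%) beside 0.37% of all. The windows also differed in the common elements. GGGCGG was found for 38 of the 54 genes (70.4%), beside 38.2% of all, and CCAAT for 17 (31.5%), beside 41.1%. The shares of GTCACGTG were not adjusted for such differences in composition. The GTCACGTG sites are shown with their surrounding bases, the match in capitals. That of Vps16 is chr2:130424290-130424319 (plus strand), 20 bases upstream of the start site. The one of Vps33a is chr5:123573010-123573039 (minus strand), 14 bases upstream. Vps26a has a palindrome upstream of each of 2 start sites, chr10:62486970-62486999 and chr10:62486732-62486761 (minus strand), and a further GTCACGTG that is not shown. That of Vps50 is chr6:3498407-3498436 (plus strand) and starts 25 bases after the start site.
Vps16: aggcggcctcGTCACGTGACcccgaagggc
Vps33a: tgaacgtcccGTCACGTGACgcaggcggcg
Vps26a, first: cgcacggctcGTCACGTGACaactagctct
Vps26a, second: atggcctacgGTCACGTGACgggcggcggg
Vps50: gcgggcagctcCACGTGACgactcactatg
The expression of these 4 genes differed little between the arrays: Vps26a by 0.24, Vps33a by 0.12, Vps50 by 0.07 and Vps16 by -0.10. Their median was 0.09, and that of the 48 other genes that passed and have a promoter entry was 0.04. A match is a description of the letters and was not tested as a binding site.

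Retromer is a trimer of VPS35, VPS29 and a VPS26 subunit that holds cargo receptors in recycling tubules. Vps26a, which encodes an arrestin-like subunit, read 10.57 (wild type) and 10.81 (knockout), 1.18-fold higher. Vps29, the scaffold subunit that also serves retriever, read 10.88 and 11.11, 1.17-fold higher. These differences, 0.24 and 0.23, were just above the local spread of 0.20 at that level, and were 0.12 and 0.11 after centring on level. Vps35, the central scaffold, read 9.79 and 9.86. The alternative subunit gene Vps26b read 6.63 and 6.61. The differences of both were within the local spread, and their signs turned with the scaling. Retriever, the related recycling complex, has VPS26C and VPS35L as its own subunits, and their genes read 7.51 and 7.71, and 7.58 and 7.61. The sign for Vps35l turned after centring on level. Of the 5 genes listed under retromer, Vps26c among them, 4 were higher, none by 25%. That is 80.0%, beside 48.9% of all genes and 61.8% of those in the highest tercile. Their median was 0.20 (0.11 to 0.27 over the scalings tried). As deposited, this median is the difference of Vps26c, the gene of a retriever subunit.

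The SNX-BAR proteins that work with retromer bend membrane into tubules as SNX1 or SNX2 paired with SNX5, SNX6 or SNX32. Snx1 was lower, at 9.51 and 9.25, while its partner in function Snx2 read 10.83 and 10.97. Snx5 read 9.89 and 9.90 and Snx6 9.68 and 9.72, differences near 0 whose sign turned with the scaling. Snx32, another member of the Snx5 subgroup, was 1.26-fold higher (5.73 and 6.06). The median of these 5 genes was 0.04, and it was -0.04 with quantile normalisation and -0.08 after centring on level.

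Other SNX-BAR genes were split. Snx8, whose product sits on early endosomes, was 1.36-fold higher (7.08 and 7.52), 1.49 times the local spread. Snx7, a partner of SNX4 in recycling and autophagy, was 1.26-fold higher (7.42 and 7.75), and its relative Snx30 read 5.99 and 6.15. Snx4 itself read 7.61 and 7.71. The SH3-domain members Snx9, Snx18 and Snx33, which act in endocytosis with dynamin and actin regulators, were all lower. Snx18 read 6.98 and 6.69, Snx9 7.82 and 7.73, and Snx33 5.36 and 5.17, the last below background on both arrays. None of these 3 was 25% apart.

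Among sorting nexins with a FERM domain no gene differed by as much as the local spread, and in the PXA-RGS group only Snx13 did. Snx17, the adaptor that links integrins and LRP1 to retriever, read 9.23 and 9.19, with a sign that turned with the scaling. Snx27, the PDZ-domain adaptor of retromer, read 7.64 and 7.76. Snx31 was below background on the wild type array (5.19) and just above it on the knockout array (5.41), at least 1.02-fold higher. All 4 genes of the PXA-RGS group, whose products bridge the endoplasmic reticulum or act at endosomes, were higher, beside 48.9% of all genes. The difference of Snx14 turned to -0.03 after centring on level. Snx13 was 1.38-fold higher (6.98 and 7.44), 1.58 times the local spread and 0.45 after centring on level. Snx25 read 5.64 and 5.89, Snx19 5.68 and 5.85, and Snx14 8.31 and 8.36.

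Snx12 had the largest positive difference of the endosomal sorting genes. It encodes a small PX-only protein close to SNX3, and read 7.53 and 8.14, 1.52-fold higher and 1.91 times the local spread. Its difference was 0.61 as deposited, but 0.58 with quantile normalisation, 0.56 after centring on level and 0.53 with an offset on the linear scale, each just under 1.5-fold. Snx3, which recruits retromer to early endosomes, read 10.31 and 10.40, and its difference turned to -0.03 after centring on level. Snx10, known for its role in osteoclasts and in endosomal acidification, read 7.97 and 7.87. The rest of this group ran from -0.28 for Snx11 to 0.25 for Snx16 among those that passed. Snx22 read 4.72 and 5.07, below background on both arrays. Of 29 sorting nexin genes that passed, 10 were lower and 19 higher (65.5%, beside 48.9% of all genes). By at least 25%, 5 were higher and 0 lower, beside 14.6% and 12.9% of all genes. The median of the 29 was 0.11, and 0.03 after centring on level.

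**Figure D5:**
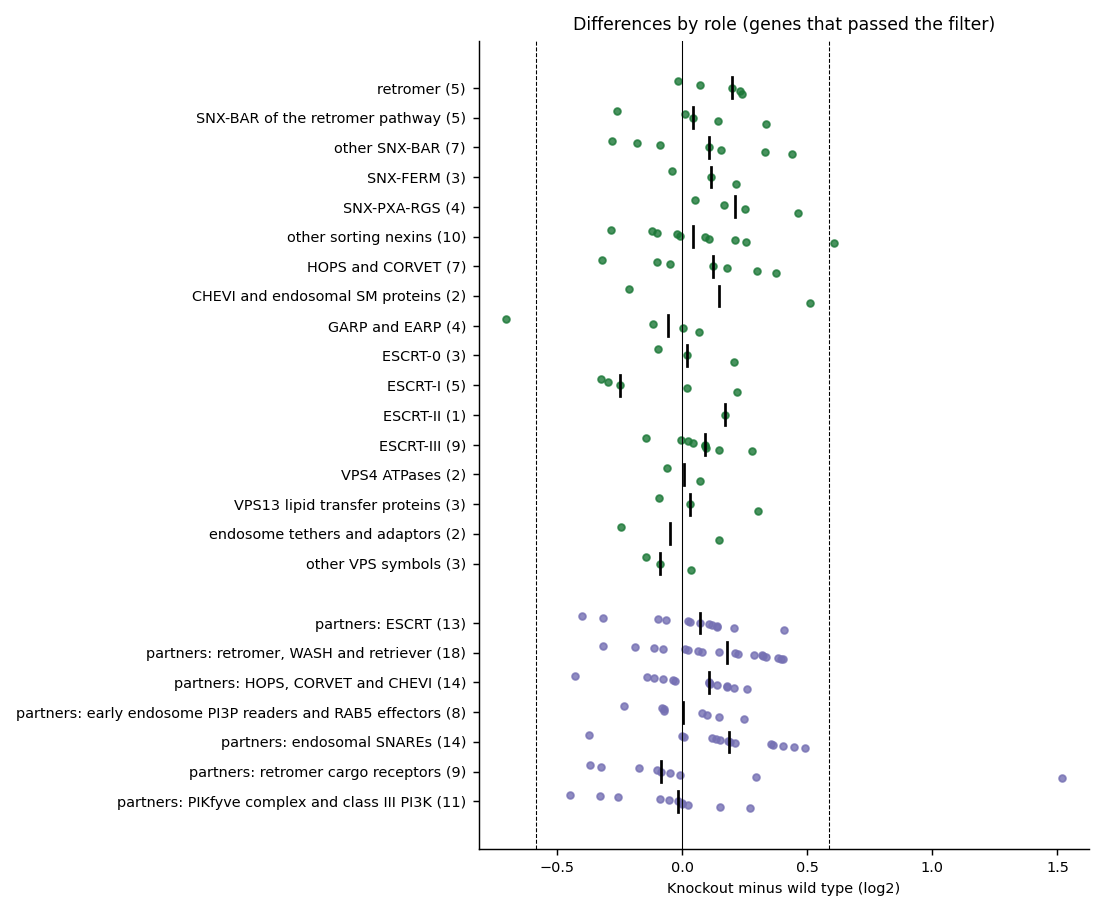
Difference between the arrays (x axis, knockout minus wild type, log2) for genes that passed the filter, 1 point a gene, in each role group (green) and each list of partner genes (purple), with the number of genes in brackets; black bars are medians and dashed lines mark 1.5-fold. Vps54, at -0.70, and Snx12, at 0.61, are the only green points outside the lines, and Trem2, at 1.52, the only purple one.

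HOPS and CORVET share a core of VPS11, VPS16, VPS18 and VPS33A. CORVET adds VPS8 and TGFBRAP1 for early endosomes, and HOPS adds VPS39 and VPS41 for late endosomes and lysosomes. The HOPS-specific subunit genes were both higher: Vps41, which binds ARL8 on lysosomes, read 8.21 and 8.58 (1.30-fold), and Vps39 read 5.85 and 6.15 (1.23-fold). Both differences were above the local spread as deposited, but not in every scaling. That of Vps41 was 0.30 after centring on level, beside a spread of 0.33. That of Vps39 was 0.20 with the offset, beside a spread of 0.25. The CORVET-specific genes were not higher as deposited. Vps8 read 7.09 and 7.04 as the mean of 2 rows, with a sign that turned with the scaling, and Tgfbrap1, a partner gene, read 5.84 and 5.41, 1.35-fold lower and 1.58 times the local spread. In the shared core, the signal of Vps18 was over 25% higher on the wild type array (6.23 and 5.91), and its 2 rows had differences of -0.30 and -0.35. Vps11 read 6.93 and 7.10, Vps33a read 6.59 and 6.71, and Vps16 had a difference of -0.10. Over the 7 genes, 4 were higher (57.1%, beside 48.9% of all genes) and 3 lower, with a median of 0.12.

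The Sec1/Munc18 protein gene Vps45, which serves SNARE fusion on early endosomes and the trans-Golgi, was 1.42-fold higher (7.84 and 8.35). Its difference of 0.51 was the second largest positive one, 1.53 times the local spread, and was 0.44 after centring on level. Vps33b, the Vps33a relative of the CHEVI complex, was lower, at 7.33 and 7.12. Its partner gene Vipas39 read 7.04 and 7.22. Stx16, which encodes a syntaxin that VPS45 binds, read 6.83 and 6.45, 1.30-fold lower.

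GARP tethers endosome-derived vesicles to the trans-Golgi, and EARP, which shares VPS51, VPS52 and VPS53 with it, acts in endosomal recycling. VPS54 defines GARP and VPS50 defines EARP. Vps54 read 7.83 and 7.13, 1.63-fold lower, with a difference of -0.70, which is 2.26 times the local spread. It stayed past 1.5-fold under each of the 8 other treatments of the values, from -0.74 after centring on level to -0.60 with the offset. The other subunit genes that were measured read nearly alike: Vps50 6.34 and 6.40, Vps52 6.46 and 6.47, and Vps53 7.83 and 7.71. Thus 1 of the 4 measured genes was apart, and the median of the 4 was -0.06, which was 0.01 with each array centred on its median.

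ESCRT-0 gathers ubiquitin-tagged cargo on the endosome. Hgs, its PI3P-binding subunit, read 6.32 and 6.23. Stam and Stam2, its partner subunits, read 5.77 and 5.79, and 6.73 and 6.93. None of these 3 genes differed by as much as the local spread.

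The ESCRT-I genes with a matching name had a median of -0.25 over 5 genes (-0.25 to -0.17 over the scalings tried, but 0.019 with a stricter filter that left 3 genes). Its Vps37 subunit genes, of which a complex holds 1 at a time, were lower in each measured case. Vps37c read 5.97 and 5.64 (a difference of -0.33), Vps37a 7.76 and 7.47 (1.23-fold lower) and Vps37d 6.10 and 5.85 (1.19-fold lower). Vps37b read 5.10 and 5.02, below background on both arrays. The common subunit genes differed from them: Tsg101, which binds ubiquitin and viral late domains, read 8.80 and 8.82, and Vps28 read 11.47 and 11.69. The sign for Tsg101 turned with quantile normalisation and after centring on level, and no test of the difference between subunits was possible. The naming rule leaves out the ESCRT-I subunit genes Mvb12a (a difference of 0.41), Mvb12b (0.02) and Ubap1 (-0.10), which are in the partner list. With these 3, 4 of 8 genes were higher and 4 lower, and the median was -0.04, which was 0.03 with each array centred on its median.

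ESCRT-II was measured here through Vps36, its ubiquitin-binding subunit, which read 9.17 and 9.34, and through the partner gene Snf8, at 9.06 and 9.20. ESCRT-III proteins form the filaments that cut the vesicle neck, and also act in membrane repair and cytokinesis. Chmp5, which acts late in filament disassembly, read 11.39 and 11.67, a 1.21-fold difference and 1.37 times the local spread. After centring on level its difference was 0.16, below the local spread of 0.20. Chmp4b, which forms the main filament, read 8.96 and 8.81. Chmp2b, of the cap that recruits VPS4, read 8.94 and 9.09. The other 6 ESCRT-III genes that passed differed by -0.01 to 0.10. Chmp4c was below background on both arrays. Of the 9, 7 were higher (77.8%, beside 48.9% of all genes and 61.8% of those in the highest tercile) and none was 25% apart. Their median was 0.09, and 0.01 after centring on level. The signs for Chmp1b, Chmp2a, Chmp6 and Chmp7 turned with the scaling. The genes of the VPS4 ATPases, which take the filaments apart, read 7.61 and 7.55 for Vps4a and 7.73 and 7.80 for Vps4b; the sign for Vps4a turned with array centring. Over all 20 ESCRT and VPS4 genes that passed, 13 were higher (65.0%, beside the same 48.9% and 61.8%) and 7 lower. Their median was 0.03, and -0.01 after centring on level. Only Vps37c was 25% apart.

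VPS13 proteins are bridges that move lipids between membranes. Vps13c, at late endosomes and lysosomes, was 1.23-fold higher (6.63 and 6.93). Vps13b, at the Golgi, read 6.27 and 6.18, Vps13d 5.78 and 5.81, and Vps13a lay below background at 4.84 on both arrays. Eea1, the PI3P-binding tether of early endosomes, read 7.40 and 7.55. Plekhm1, the adaptor that joins RAB7 and HOPS, was lower, at 6.61 and 6.36, a difference of 0.94 local spreads in size. Vps9d1, with a domain of RAB5 exchange factors, read 6.84 and 6.70. Vps72 bears a Vps symbol but encodes a chromatin-remodelling subunit, and read 8.08 and 7.99.

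Close relatives did not always go the same way. Among 17 pairs of related genes in which both passed, 11 had the same sign and 6 opposite signs, and the median gap between the differences of a pair was 0.18. The widest gap, 0.52, was between Snx3 (0.09) and Snx12 (0.61). Snx13 (0.46) and Snx14 (0.05) were 0.41 apart, and Snx1 (-0.26) and Snx2 (0.14) 0.40 apart with opposite signs. Vps33a (0.12) and Vps33b (-0.21) also had opposite signs. Chmp1a (0.09) and Chmp1b (0.10) and Snx5 (0.01) and Snx6 (0.04) were the closest pairs. Of the 4 genes with more than 1 row, none had rows of opposite sign; the rows of Snx11 differed by -0.33 and -0.23.

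The proteins that work with this machinery were read through 7 lists with 92 measured genes, of which 87 passed. Of these, 52 were higher (59.8%, beside 48.9% of all genes) and 33 lower, with a median of 0.08. By 1.5-fold or more, 1 was higher and 0 lower, beside 4.45% and 2.66% of all genes. The higher one was Trem2, the lipid receptor of macrophages that retromer recycles, at 8.75 and 10.26. Of the other 8 cargo receptor genes that passed, 7 were lower, beside 49.6% of all genes, and 1, Slc11a2, was higher. The median of the 8 was -0.09. The signs for M6pr and Atp7a turned with the scaling. Sorcs2 lay below background on both arrays and Lrp1 on the knockout array. Among the lower ones was Sort1, the Golgi-to-lysosome sorting receptor, at 6.97 and 6.61. The cation-dependent mannose 6-phosphate receptor gene M6pr, a classical retromer cargo, read 10.24 and 10.23. Igf2r, of the other mannose 6-phosphate receptor, was below background, at 4.73 and 4.59.

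Endosomal SNARE genes, whose products fuse the membranes that HOPS and CORVET tether, were mostly higher. Of 14, 12 were higher (85.7%), 1, Stx16, was lower and 1, Stx6, read the same on both arrays. Of all genes 48.9% were higher, and of those in the highest tercile by level 61.8%. The median of the SNARE genes was 0.19 (0.11 to 0.25 over the scalings tried). Whether this list differs from other genes was not tested. Vti1a was 1.40-fold higher (6.89 and 7.38) and Stx12 1.36-fold higher (6.46 and 6.91). Stx7 (9.89 and 10.26) and Stx8 (9.40 and 9.80), which form the late endosomal fusion complex with VTI1B and VAMP7 or VAMP8, were 1.29-fold and 1.32-fold higher. Vti1b, Vamp7 and Vamp8 were higher by 0.18, 0.19 and 0.21.

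The list for retromer, retriever and the WASH actin complex held 18 genes that passed. Of the 18, 14 were higher (77.8%, beside 48.9% of all genes and 61.8% of those in the highest tercile). The median of the list was 0.18 (0.12 to 0.24 over the scalings tried). Divided after the values were seen, the list held 9 genes of the COMMD proteins, which work with retriever. All 9 were higher, by 0.02 to 0.40, though the sign for Commd4 turned with the scaling. Their median was 0.29 (0.20 to 0.35 over the scalings), and Commd9 read 8.44 and 8.84, 1.32-fold higher. The 5 WASH genes were split, with a median of 0.01 that was -0.04 after centring on level. Washc3 read 10.11 and 10.50, 1.32-fold higher, and Washc4 7.30 and 7.52, while Washc1 and Washc2 read lower by 0.11 and 0.08 and Washc5 differed by 0.01. Of the other 4 genes of the list, 2 were higher and 2 lower. Among ESCRT partners, Mvb12a, an ESCRT-I subunit gene, was 1.33-fold higher (8.47 and 8.88). Pdcd6ip, which encodes the ESCRT adaptor ALIX, was 1.32-fold lower (8.70 and 8.29). The 13 genes of that list that passed had a median of 0.07.

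The list of HOPS, CORVET and CHEVI partners had a median of 0.11 over 14 genes. It held the tether subunit genes Tgfbrap1 and Vipas39 beside small GTPases and their regulators. Rab7, the late endosome GTPase that HOPS binds, read 9.53 and 9.79, and Tgfbrap1 had the largest difference of that list, at -0.43. A list of early endosome proteins, FYVE-domain readers of PI3P together with RAB5 effectors and regulators (Appl1, Rabep1, Rabep2 and Rabgef1), had a median of 0.00 over 8 genes, with the FYVE-domain genes Wdfy1 at 7.35 and 7.59 and Wdfy2 at 6.76 and 6.53. The genes of the PIKfyve complex and of other enzymes and cofactors that make or turn over PI3P had a median of -0.02 over 11 genes, which was 0.05 with each array centred on its median. Vac14, the scaffold of the PIKfyve complex, was 1.37-fold lower (6.10 and 5.65), and Fig4, its phosphatase, read 6.15 on both arrays. Mtmr4, a PI3P phosphatase of endosomes, was 1.26-fold lower (6.06 and 5.73).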

How the data were processed

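Biotin-labelled cDNA from sorted alveolar macrophages was hybridised to Affymetrix arrays, 1 per genotype. The authors deposited log2 values processed with RMA, per the submitters' processing notes. Neither the RMA version nor a genome build was given in the sources used here. That the scale is log2 was taken from the method and the range of the values (0.77 to 13.86). Of 41345 rows, 23521 have 1 gene symbol in the platform annotation, 1814 several and 16010 none listed. Rows of a gene were averaged. Precision is limited by the number of arrays, and no test was possible.

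Python 3.11.15, numpy 2.4.6, pandas 2.3.3 and statsmodels 0.14.6 (loess, span 0.3) were used. The procedure was run on simulated data with shifts well past 1.5-fold and noise below the local spread of these arrays. That run checks the code only and says nothing about differences near 1.5-fold. The genes, role groups, partner lists and marker lists were chosen with earlier results of these data known. All genes of the rule may be named; values are given for those whose signals were 25% apart, the 2 largest differences of each group, and the 2 largest of each partner list, and others were chosen after their values were seen. The palindrome and the common promoter elements were added to the motifs after values were seen. Alternatives were 3 other filters, array centring, quantile normalisation, loess centring, an offset of 32, the brightest row of a gene, and thresholds of 25% and 2-fold. The WASH, COMMD and wider ESCRT-I subsets were formed after the values were seen. Protein sequences were not used here.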

Additional observations from a re-analysis of the deposited data

How the results depend on the processing

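No paired analysis was possible because each genotype has 1 array, and for the same reason no array could be left out. The count of 1 endosomal sorting gene at least 1.5-fold higher (Snx12) became 0 with quantile normalisation, loess centring, the offset of 32 and a threshold of 2-fold; the count of 1 lower (Vps54) became 0 only with the threshold of 2-fold. At a threshold of 25% they were 7 and 3. The median over the endosomal sorting genes moved by less than 0.1 under each alternative. Of 192 group and list medians recomputed, 5 moved by 0.1 or more. With a filter at the 75th percentile of rows, which left fewer genes, those of ESCRT-0, ESCRT-I and VPS13 were 0.21 (1 gene), 0.019 (3 genes) and 0.30 (1 gene). With loess centring, that of the retromer SNX-BAR genes was -0.076 and that of ESCRT-II 0.056. The limit of 0.1 is larger than several of the medians, so a change of sign can pass below it. With quantile normalisation, the median of the retromer SNX-BAR genes went from 0.04 to -0.04. Array centring shifts each median by 0.07, which could not reach the limit. None of 378 recomputed differences of 49 named genes moved by more than its local spread. The other filters leave a gene's difference as it is, and array centring adds the same 0.07 to each. For these alternatives the outcome was fixed in advance. Of the 75 endosomal sorting genes that passed, 17 changed sign in at least 1 scaling. Centring each array on its median raised the median of all genes by 0.07 and changed the genes at least 1.5-fold higher and lower from 557 and 333 to 735 and 219. Signal near background limits Snx22, Snx31, Snx33, Vps13a, Vps37b and Chmp4c.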

Other observations

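The array has 6 rows that list a matching Vps, Snx, Chmp or added symbol together with other genes, so they name no gene here and entered no count. All 6 read higher in the array labelled knockout, by 0.21 to 0.39, with a median of 0.23 and none at 1.5-fold.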
